A study of Homo sapiens with 6 samples.

Results

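Transcripts of the nuclear-encoded subunits of the respiratory chain and of ATP synthase were compared between sgMETTL13 and sgControl cells. Members were taken by gene symbol: the NDUFA, NDUFB, NDUFC, NDUFS and NDUFV genes, SDHA to SDHD, the UQCR genes, CYC1, the subunits COX4 to COX8 and the ATP5 genes, without NDUFA4L2 and the NDUFAF assembly factors. The rule took 85 of the 16617 genes in the authors' deposited table and used no measured value. By complex there were 37 genes of complex I, 4 of complex II, 10 of complex III, 14 of complex IV and 20 of complex V (ATP synthase). NDUFA4, named after complex I, was counted with complex IV, where its protein is now placed. Of the 85 genes, 81 encode a subunit, an inhibitor or a supercomplex factor, and 4 are readthrough genes or copies.

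The cells were T3M4, an established human pancreatic ductal adenocarcinoma line. The sgMETTL13 group had 3 libraries from T3M4 cells with a guide RNA against METTL13, which the labels call METTL13 knockdown derivatives. The sgControl group had 3 libraries from T3M4 cells with a control guide RNA, whose genotype the labels give as WT. Both groups grew in DMEM with fetal bovine serum and penicillin/streptomycin, and the labels name no further agent and no time. Whether the knockdown cells were 1 clone or a pool, and whether the 3 libraries of a group came from separate cultures, was not given in the sources used here, so the spread behind the p-values may be technical. METTL13, a methyltransferase of the elongation factor eEF1A, averaged 5.63 TPM in sgMETTL13 cells and 39.9 TPM in sgControl cells in the authors' deposited table, with a log2 fold change of -2.78 (adjusted p = 2.5e-127).

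The respiratory chain of the inner mitochondrial membrane passes electrons from NADH (complex I) and succinate (complex II) through coenzyme Q, complex III and cytochrome c to complex IV, which reduces oxygen. Complexes I, III and IV pump protons, and ATP synthase uses the returning protons to make ATP. Most subunits are encoded in the nucleus and imported, while a small core of complexes I, III, IV and V is encoded by mitochondrial DNA, so that complete complexes need both genomes. The mitochondrially encoded subunits are not analysed here.

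All values are group averages and the comparison of the authors' deposited table; the values of single libraries are not analysed here. TPM, a level corrected for transcript length and library size, is the scale on which levels of different genes are compared. The deposited log2 fold change is the ratio of sgMETTL13 over sgControl, and a gene is said to have passed the test, or to have risen or fallen, where the deposited adjusted p was under 0.05. Each standard error below was implied by the deposited log2 fold change and its two-sided p, assuming a normal test. In the median gene with at least 205 mean reads, the deposited log2 fold change lies 0.07345 above the log2 ratio of average TPM (SD 0.02735 across these genes). Above the log2 ratio of average counts it lies by 0.0516 (SD 0.000717). A gene can therefore have a small positive log2 fold change and a slightly lower TPM in sgMETTL13 cells.

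The respiratory chain and ATP synthase transcripts were nearly level between the groups, and 2 of 85 passed the test. NDUFB11 (an accessory subunit of complex I) and UQCR11 (a small subunit of complex III) rose by about 1.21-fold and 1.19-fold in the authors' deposited table, and none fell. Across all genes of the authors' deposited table, 3.80% passed the test, 2.73% higher and 1.08% lower. At an unadjusted p under 0.05, 13 members were higher and 1 (ATP5F1C) lower, against 7.65% of all genes higher and 4.80% lower in the authors' deposited table. Among the 8309 genes with at least the median of 205 mean reads, a background closer to these abundant transcripts, 7.04% passed the test (5.21% higher and 1.83% lower) according to the authors' deposited table, and 13.7% were higher and 7.27% lower at an unadjusted p under 0.05. The share of members that passed (2 of 85) was below that of the abundant genes, and no test of this difference was made. In RNA from a culture, a small change in every cell and a larger change in some cells cannot be told apart.

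The members together took 2.06% of all TPM in sgMETTL13 cells and 2.07% in sgControl cells in the authors' deposited table, with sums of 20630 TPM in sgMETTL13 cells and 20649 TPM in sgControl cells. The median log2 fold change of the members was 0.051 in the authors' deposited table, with quartiles of -0.022 and 0.127, against 0.011 for the 8309 abundant genes, with quartiles of -0.079 and 0.1002. Of the members, 53 (62.4%) were above 0 and 32 below, against 50.2% of all genes and 53.3% of the abundant genes above 0. On the log2 ratio of average TPM the members' median was -0.020, so the sign of this median depends on the measure used, and 35 of 85 were above 0. On that ratio the abundant genes had a median of -0.059, with 2651 of 8309 above 0. For the 79 members with at least 100 mean reads the log2 fold change in the authors' deposited table ran from -0.23 (NDUFB3) to 0.33 (NDUFB6). The implied 95% interval lay within a 1.5-fold change for 78 of these 79, with NDUFB6 as the exception. The median implied standard error of the members was 0.083.

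**Figure D1:**
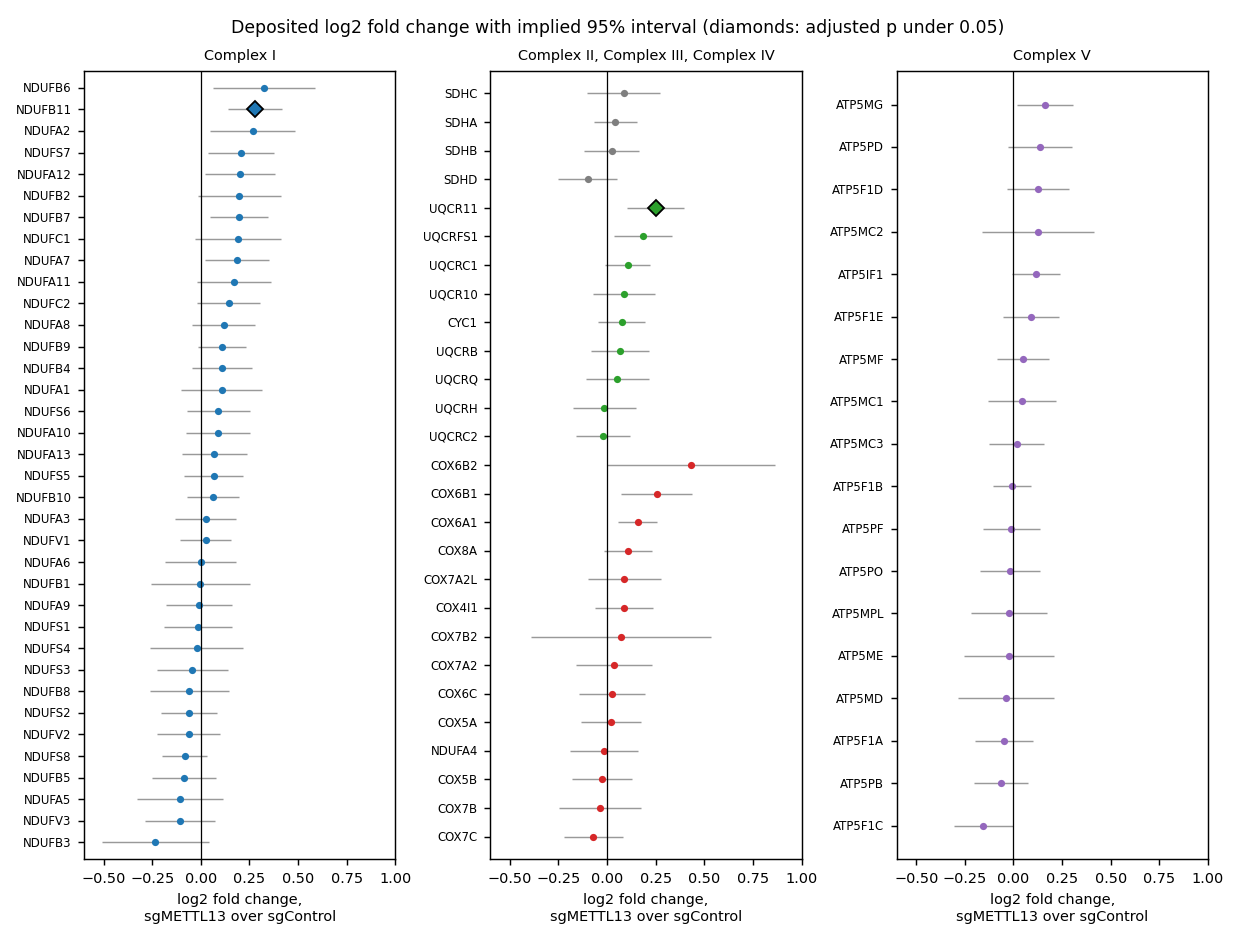
Deposited log2 fold change (sgMETTL13 over sgControl) of the 81 subunit, inhibitor and supercomplex factor genes by complex, with implied 95% intervals. NDUFB11 and UQCR11 are the 2 members that passed the test, and most other intervals cross 0.

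Both members that passed the test were moderately abundant. NDUFB11 averaged 162 TPM and 1306 estimated reads in sgMETTL13 cells, against 141 TPM and 1115 reads in sgControl cells, in the authors' deposited table. Its log2 fold change was 0.28 according to the authors' deposited table (implied SE 0.071, implied 95% interval 0.14 to 0.42, adjusted p = 0.00389). NDUFB11 is a protein-coding gene on the minus strand of the X chromosome, from 47142216 to 47145504 (GRCh38, GENCODE 29), and the 636 bases at its 5′ end overlap RBM10 on the plus strand. Whether the counting used strand was not given in the sources used here, and RBM10 itself had a log2 fold change of 0.027 according to the authors' deposited table. UQCR11 averaged 111 TPM and 1100 estimated reads in sgMETTL13 cells, against 98.3 TPM and 960 reads in sgControl cells, in the authors' deposited table. Its log2 fold change was 0.25 according to the authors' deposited table (implied SE 0.076, implied 95% interval 0.10 to 0.40, adjusted p = 0.0301). UQCR11 is a protein-coding gene on the minus strand of chromosome 19, from 1597172 to 1605490 (GRCh38, GENCODE 29). AC005943.1, a protein-coding gene not analysed here, overlaps 8274 bases of UQCR11 on the same strand, from 1597172 to 1605445. Both calls were lost when a trend of fold change in transcript GC content and length was removed, with log2 fold changes of 0.21 for NDUFB11 (adjusted p = 0.0895) and 0.19 for UQCR11 (adjusted p = 0.231). COX6A1 lay just outside the threshold, with a log2 fold change of 0.16 according to the authors' deposited table (implied SE 0.051, adjusted p = 0.0553). It passed the test when p was adjusted over the 8309 abundant genes alone (adjusted p = 0.0297). It did not pass with fold changes centred on the median abundant gene (adjusted p = 0.0919). With the GC and length trend removed its log2 fold change was 0.13 (adjusted p = 0.227). AL021546.1, a protein-coding gene not analysed here, overlaps 2545 bases of COX6A1 on the same strand.

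The 250 bases before the RefSeq start (GRCh38.p14) of these 3 genes and of NDUFS8, the most abundant complex I transcript, are shown 5′ to 3′ on the gene's strand, because nuclear respiratory genes are known to share binding motifs there. Capitals mark whole matches to TGCGCA (NRF1), CCGGAAG (GABP/ETS), AAGATGG (YY1) and CACGTG (E-box), each searched on both strands, and no printed matches overlap. The NDUFB11 stretch is chrX:47144703-47144952 (minus strand), that of UQCR11 chr19:1605463-1605712 (minus strand), that of COX6A1 chr12:120437863-120438112 (plus strand) and that of NDUFS8 chr11:68030431-68030680 (plus strand). The RefSeq start of each of these genes lies inside its GENCODE 29 span, so at least part of each stretch falls within the annotated gene.
NDUFB11: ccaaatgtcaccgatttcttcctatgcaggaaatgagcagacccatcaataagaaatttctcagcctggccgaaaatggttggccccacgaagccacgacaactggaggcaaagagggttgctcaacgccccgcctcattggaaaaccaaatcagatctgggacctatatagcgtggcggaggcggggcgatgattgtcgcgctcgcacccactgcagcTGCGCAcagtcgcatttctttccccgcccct
UQCR11: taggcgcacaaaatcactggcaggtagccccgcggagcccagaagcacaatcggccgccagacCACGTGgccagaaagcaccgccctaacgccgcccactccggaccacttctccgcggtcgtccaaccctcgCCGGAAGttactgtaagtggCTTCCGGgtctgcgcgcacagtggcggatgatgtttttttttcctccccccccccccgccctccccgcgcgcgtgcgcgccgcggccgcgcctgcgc
COX6A1: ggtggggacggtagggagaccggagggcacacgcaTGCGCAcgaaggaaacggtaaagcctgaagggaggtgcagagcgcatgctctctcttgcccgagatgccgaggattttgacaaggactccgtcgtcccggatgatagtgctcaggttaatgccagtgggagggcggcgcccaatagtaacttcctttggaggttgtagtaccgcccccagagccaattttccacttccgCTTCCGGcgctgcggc
NDUFS8: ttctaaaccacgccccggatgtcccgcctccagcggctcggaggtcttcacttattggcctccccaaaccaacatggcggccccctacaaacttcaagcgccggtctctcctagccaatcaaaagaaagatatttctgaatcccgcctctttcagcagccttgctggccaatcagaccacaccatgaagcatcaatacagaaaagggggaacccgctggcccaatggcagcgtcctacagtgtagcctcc
NDUFB11 held 1 match, UQCR11 held 3 and COX6A1 held 2, while NDUFS8 held none of these letters in the stretch. Over windows of 250 bases before to 50 after the start, 68 of 81 subunit and inhibitor genes had a RefSeq promoter. CCGGAAG was in 29.4% of these 68, against 22.1% of 6895 abundant genes and 10.7% of all 27305 RefSeq promoters. TGCGCA was in 27.9% of the 68, against 14.8% of the abundant genes and 8.42% of all promoters. AAGATGG was in 23.5% of the 68, against 8.91% and 6.06%, and CACGTG was in 10.3%, against 11.2% and 7.43%. A match is a description of the letters and says nothing of binding.

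Complex I, which oxidises NADH, had 7 of its 37 members (18.9%) higher at an unadjusted p under 0.05 and none lower. At that p, 13.7% of the abundant genes were higher and 7.27% lower, and the difference was not tested. NDUFB11 was the 1 member of complex I that passed the test in the authors' deposited table. The summed level of complex I was 5911 TPM in sgMETTL13 cells and 5917 TPM in sgControl cells in the authors' deposited table. NDUFS8, a core subunit that carries iron-sulfur clusters, averaged 638 TPM in sgMETTL13 cells and 711 TPM in sgControl cells in the authors' deposited table, the highest level of the complex (log2 fold change -0.084, adjusted p = 0.697). With the GC and length trend removed the log2 fold change of NDUFS8 was -0.19 (adjusted p = 0.0520). NDUFA3, an accessory subunit of the membrane arm, averaged 384 TPM in sgMETTL13 cells and 392 TPM in sgControl cells in the authors' deposited table. NDUFS5, another membrane arm accessory subunit, averaged 381 TPM in sgMETTL13 cells and 382 TPM in sgControl cells in the authors' deposited table. None of these 3 abundant subunits passed the test. Among members with at least 100 mean reads, NDUFB6, an accessory membrane arm subunit, had the highest log2 fold change of complex I with 47.5 TPM in sgMETTL13 cells and 39.8 TPM in sgControl cells in the authors' deposited table (0.33, implied SE 0.135, adjusted p = 0.197). NDUFB3, of the same arm, had the lowest with 35.3 TPM in sgMETTL13 cells and 43.8 TPM in sgControl cells in the authors' deposited table (-0.23, implied SE 0.140, adjusted p = 0.554). NDUFA5 was the least abundant subunit, at 14.1 TPM in sgMETTL13 cells and 15.8 TPM in sgControl cells in the authors' deposited table.

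Within complex I the 7 core subunits, which carry the flavin and the iron-sulfur clusters, had a median log2 fold change of -0.044 according to the authors' deposited table, with 2 above 0. Their summed level was 1208 TPM in sgMETTL13 cells and 1302 TPM in sgControl cells in the authors' deposited table. The 20 accessory subunits of the membrane arm had a median of 0.108 in the authors' deposited table, with 16 above 0. The 9 accessory subunits of the matrix arm had a median of -0.0015 in the authors' deposited table, with 4 above 0. Of the abundant genes, 53.3% were above 0. The median GC content of the transcripts was 55.5% for the core and 50.7% for the membrane arm group. This grouping was looked at after the values were seen, and the difference between the groups was not tested.

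Complex II (succinate dehydrogenase) also serves the citric acid cycle, and none of its 4 subunits passed the test. SDHA, the flavoprotein, averaged 168 TPM in sgMETTL13 cells and 172 TPM in sgControl cells in the authors' deposited table. SDHB, the iron-sulfur subunit, averaged 151 TPM in sgMETTL13 cells and 156 TPM in sgControl cells in the authors' deposited table. SDHC, a membrane anchor, averaged 50.2 TPM in sgMETTL13 cells and 49.7 TPM in sgControl cells in the authors' deposited table (log2 fold change 0.086). SDHD, the other anchor, averaged 81.8 TPM in sgMETTL13 cells and 92.2 TPM in sgControl cells in the authors' deposited table (log2 fold change -0.10, adjusted p = 0.749). The 4 log2 fold changes lay between the values of the anchors.

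Complex III passes electrons from coenzyme Q to cytochrome c, and UQCR11 was the 1 of its 10 members that passed the test. CYC1 (cytochrome c1) averaged 470 TPM in both groups in the authors' deposited table (log2 fold change 0.075). UQCRFS1, the Rieske iron-sulfur protein, averaged 143 TPM in sgMETTL13 cells and 133 TPM in sgControl cells in the authors' deposited table (log2 fold change 0.18, adjusted p = 0.201). Of the core proteins, UQCRC1 averaged 270 TPM in sgMETTL13 cells and 264 TPM in sgControl cells in the authors' deposited table, and UQCRC2 had the lowest log2 fold change of the complex, -0.022. UQCRH, the hinge protein, averaged 256 TPM in sgMETTL13 cells and 273 TPM in sgControl cells in the authors' deposited table, and UQCRB, a small subunit, was the least abundant apart from the copy UQCRHL, at 49.5 TPM in sgMETTL13 cells and 49.8 TPM in sgControl cells. The summed level was 1629 TPM in sgMETTL13 cells and 1623 TPM in sgControl cells in the authors' deposited table.

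Complex IV (cytochrome c oxidase) had 3 of 14 members (21.4%) higher at an unadjusted p under 0.05, against 13.7% of the abundant genes. This difference was not tested, and no member of complex IV passed the test. COX6A1, the ubiquitous form of subunit 6A, was the most abundant member of all, at 2500 TPM in sgMETTL13 cells and 2357 TPM in sgControl cells in the authors' deposited table. COX8A averaged 820 TPM in sgMETTL13 cells and 800 TPM in sgControl cells in the authors' deposited table. COX5B averaged 374 TPM in sgMETTL13 cells and 401 TPM in sgControl cells in the authors' deposited table. COX6B1, which bridges the monomers of the dimer, had the highest log2 fold change among members of complex IV with at least 100 mean reads, with 316 TPM in sgMETTL13 cells and 278 TPM in sgControl cells in the authors' deposited table (0.25, implied SE 0.093, adjusted p = 0.110). COX7C had the lowest, with 366 TPM in sgMETTL13 cells and 404 TPM in sgControl cells in the authors' deposited table (-0.072, adjusted p = 0.897). The summed level was 5635 TPM in sgMETTL13 cells and 5532 TPM in sgControl cells in the authors' deposited table.

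Tissue isoforms of complex IV made up similar shares of their families in both groups. COX6B2, known from testis, made up 2.63% of the COX6B transcripts in sgMETTL13 cells and 2.34% in sgControl cells in the authors' deposited table (log2 fold change 0.43, implied SE 0.22, adjusted p = 0.402), and it shares reads with other genes. COX7B2, the other testis form, made up 7.67% of COX7B transcripts in sgMETTL13 cells and 7.17% in sgControl cells in the authors' deposited table. COX7A2L, a supercomplex factor related to COX7A2, made up 31.3% of their sum in sgMETTL13 cells and 30.8% in sgControl cells in the authors' deposited table. COX4I1 averaged 385 TPM in sgMETTL13 cells and 381 TPM in sgControl cells in the authors' deposited table; COX4I2, COX6A2, COX7A1 and COX8C are not analysed here.

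NDUFA4L2, a relative of NDUFA4 known to be induced by hypoxia, was left out by the rule and passed the test. It averaged 127 TPM in sgMETTL13 cells and 77.3 TPM in sgControl cells in the authors' deposited table (log2 fold change 0.79, implied SE 0.083, adjusted p = 1.55e-18). NDUFA4 itself averaged 61.2 TPM in sgMETTL13 cells and 65.1 TPM in sgControl cells in the authors' deposited table (log2 fold change -0.015, adjusted p = 0.977). NDUFA4L2 therefore held 67.5% of the sum of both transcripts in sgMETTL13 cells and 54.3% in sgControl cells.

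ATP synthase had 1 of 20 members higher (ATP5MG) and 1 lower (ATP5F1C) at an unadjusted p under 0.05. Among the abundant genes 13.7% were higher and 7.27% lower at that p. No member of ATP synthase passed the test in the authors' deposited table. In the catalytic F1 head, ATP5F1B (the beta subunit) averaged 1063 TPM in sgMETTL13 cells and 1124 TPM in sgControl cells in the authors' deposited table (log2 fold change -0.0078). ATP5F1C, the gamma subunit of the rotating stalk, had the lowest log2 fold change among members of ATP synthase with at least 100 mean reads, with 181 TPM in sgMETTL13 cells and 212 TPM in sgControl cells in the authors' deposited table (-0.15, implied SE 0.078, adjusted p = 0.399). ATP5F1A, the alpha subunit, is present in the same number as beta in the enzyme, yet its TPM was 0.101 of that of ATP5F1B in sgMETTL13 cells and 0.103 in sgControl cells in the authors' deposited table. The transcript levels of partners that the enzyme holds in equal numbers thus differed about as much in both groups. In the peripheral stalk, 1 of 4 subunits was above 0, with a median of -0.014 in the authors' deposited table.

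The c ring, which turns as protons pass, is encoded by 3 genes with the same mature protein. ATP5MC2 made up 80.2% of their summed TPM in sgMETTL13 cells and 79.1% in sgControl cells in the authors' deposited table. ATP5MC1 made up 14.2% in sgMETTL13 cells and 14.9% in sgControl cells, and ATP5MC3 made up 5.66% in sgMETTL13 cells and 6.03% in sgControl cells, in the authors' deposited table. The summed level of the 3 genes was 1057 TPM in sgMETTL13 cells and 1030 TPM in sgControl cells. ATP5MC2 averaged 848 TPM in sgMETTL13 cells and 815 TPM in sgControl cells in the authors' deposited table, with an implied SE of 0.147, which is 2.38 times that of genes with like reads. Among the small membrane subunits, ATP5MF was the most abundant member of ATP synthase with 1525 TPM in sgMETTL13 cells and 1546 TPM in sgControl cells in the authors' deposited table. ATP5MG, which takes part in dimer formation, had the highest log2 fold change, with 137 TPM in sgMETTL13 cells and 129 TPM in sgControl cells in the authors' deposited table (0.16, implied SE 0.074, adjusted p = 0.297). ATP5IF1, the inhibitor of ATP hydrolysis, averaged 353 TPM in sgMETTL13 cells and 345 TPM in sgControl cells in the authors' deposited table (log2 fold change 0.12, adjusted p = 0.460).

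**Figure D2:**
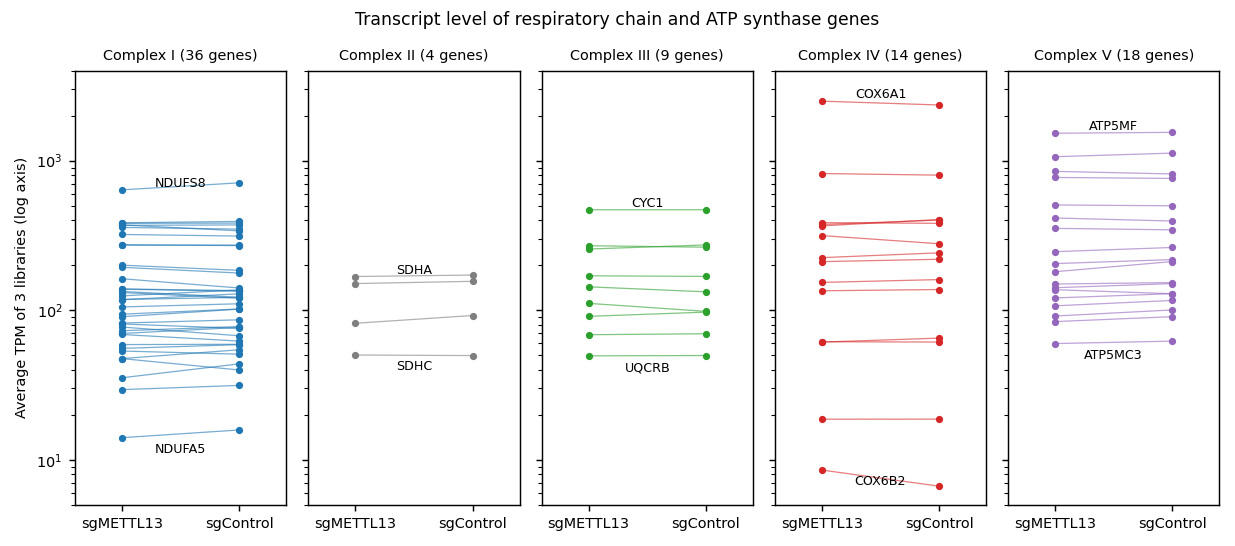
Average TPM (log axis) of the 81 subunit, inhibitor and supercomplex factor genes by complex in sgMETTL13 and sgControl cells. The points of each gene lie close together across levels from COX6A1 at 2500 TPM down to COX6B2 at 8.53 TPM in sgMETTL13 cells. The readthrough genes and copies are not drawn.

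The 4 members that are no subunit genes were hardly detected. NDUFC2-KCTD14, a readthrough gene, averaged 10.8 estimated reads in sgMETTL13 cells and 6.90 in sgControl cells in the authors' deposited table. ATP5MF-PTCD1, another readthrough gene, averaged 0.417 TPM in sgMETTL13 cells and 0.477 TPM in sgControl cells in the authors' deposited table, with an implied SE 8.37 times that of genes with like reads. UQCRHL, a copy of UQCRH, averaged 0.193 TPM in sgMETTL13 cells and 0.0967 TPM in sgControl cells in the authors' deposited table, and ATP5MGL was listed at 0 in sgMETTL13 cells and at 0.12 TPM in sgControl cells. These 2 copies were under 10 reads in both groups, and no fold change is given for them.

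Across the 79 members with at least 100 mean reads, the log2 fold change of the authors' deposited table ran with the GC content of the transcript (Pearson's r = 0.36 across genes), and the same held for 8289 abundant genes (r = 0.32). Genes share the libraries and are not independent replicates, so no p is given. By quintile of GC content the abundant genes had median log2 fold changes of -0.049, -0.023, 0.0015, 0.042 and 0.094 from the lowest to the highest quintile in the authors' deposited table, and the members falling in these quintiles had -0.030, -0.0058, 0.076, 0.090 and 0.090. After removal of the GC and length trend, 2.79% of 16208 genes passed the test and no member did. At an unadjusted p under 0.05, 9 members were then higher and 1 lower. The shares of all genes at that p with the trend removed are not given here. The counts of 9 and 1 were therefore compared with no background. The part of GC content in the members' fold changes was not tested.

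**Figure D3:**
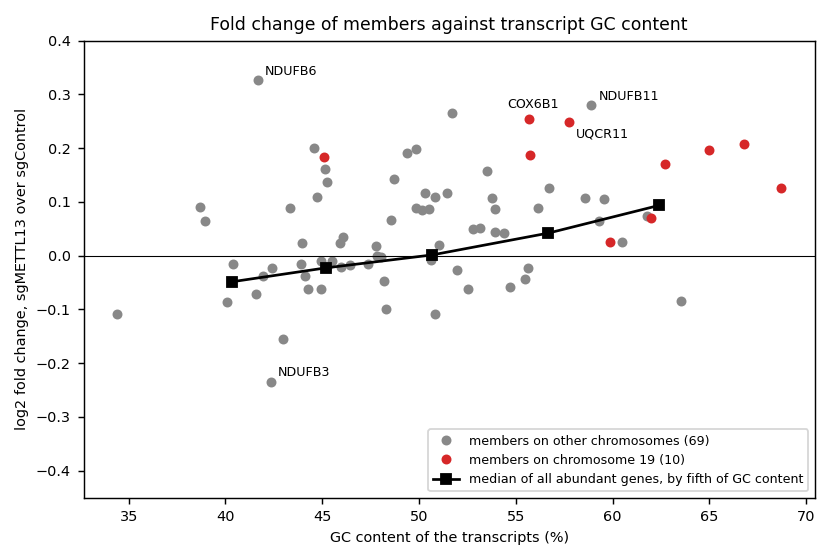
Deposited log2 fold change (sgMETTL13 over sgControl) against GC content of the transcripts (percent) for the 79 members with at least 100 mean reads, with the median of abundant genes by quintile of GC content as a line. Members on chromosome 19 (red) lie above 0, most of them at high GC content.

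Chromosome 19 holds 11 of the members, more than any other chromosome (the next holds 8), and all 11 had a log2 fold change above 0 in the authors' deposited table. They include UQCR11, UQCRFS1, COX6B1, COX6B2, NDUFA7, NDUFB7 and NDUFS7, 7 of the 13 members higher at an unadjusted p under 0.05. Of the 551 abundant genes on chromosome 19, 81.1% were above 0 and 26.3% were higher at an unadjusted p under 0.05 in the authors' deposited table. The members' median there was 0.188, against 0.030 for the 74 members elsewhere, of which 42 were above 0, in the authors' deposited table. The abundant genes of chromosome 19 had a median of 0.092 and a GC content of 61.0%, both the highest of the 23 chromosomes compared. After removal of the GC and length trend, the median of the chromosome 19 members was 0.082 and that of the abundant genes there 0.018. The chromosome was singled out after the values were seen, and the difference was not tested.

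Few of the genes that build or serve the chain passed the test. Of 110 genes in 9 lists, 1 rose and 1 fell in the authors' deposited table, and 3 were higher and 7 lower at an unadjusted p under 0.05, with a median log2 fold change of -0.014. Among all genes, 3.80% passed the test, and 7.65% were higher and 4.80% lower at an unadjusted p under 0.05, in the authors' deposited table. Of the 110 genes, 96 had at least 100 mean reads. Among the 8309 abundant genes, 7.04% passed the test, and 13.7% were higher and 7.27% lower at that p. Of these abundant genes 53.3% were above 0. DMAC2, a complex I assembly factor gene on chromosome 19, averaged 67.8 TPM in sgMETTL13 cells and 56.2 TPM in sgControl cells in the authors' deposited table (log2 fold change 0.31, implied SE 0.096, adjusted p = 0.0362), and with the trend removed the log2 fold change was 0.26 (adjusted p = 0.157). PPARGC1B, a coactivator of nuclear genes for mitochondria, averaged 5.82 TPM in sgMETTL13 cells and 7.49 TPM in sgControl cells in the authors' deposited table (log2 fold change -0.39, implied SE 0.119, adjusted p = 0.0308), and with the trend removed it was -0.45 (adjusted p = 0.00897). In the other lists no gene passed the test. The 18 complex I assembly factors had a median of 0.0063, the 25 complex IV assembly factors 0.010 and the 5 ATP synthase assembly genes 0.031 in the authors' deposited table. Their smallest adjusted p were those of SCO2 (log2 fold change 0.19, adjusted p = 0.443) and CMC1 (0.36, adjusted p = 0.449) for complex IV, and FMC1 (0.14, adjusted p = 0.961) and ATPAF1 (0.031, adjusted p = 0.968) for ATP synthase, in the authors' deposited table. The 9 transcriptional regulators, which include PPARGC1B, had a median of -0.025, and NDUFAB1, the acyl carrier protein of complex I, had -0.0065 in the authors' deposited table. The 10 complex II and III assembly factors had a median of -0.128, with 3 above 0 in the authors' deposited table, and their smallest adjusted p were those of LYRM7 (log2 fold change -0.23, adjusted p = 0.445) and SDHAF3 (-0.22, adjusted p = 0.564). Of 15 genes of electron carriers and coenzyme Q synthesis, COQ8A, an atypical kinase of coenzyme Q synthesis, averaged 12.3 TPM in sgMETTL13 cells and 16.7 TPM in sgControl cells in the authors' deposited table (log2 fold change -0.34, adjusted p = 0.0742), with -0.39 after the trend was removed (adjusted p = 0.0335), and COQ4 had 0.25 (adjusted p = 0.261). The 13 genes of mitochondrial DNA maintenance and transcription had a median of -0.057 in the authors' deposited table, with TFB2M at -0.40 (adjusted p = 0.197) and TFB1M at -0.47 (adjusted p = 0.264). Of the 14 citric acid cycle enzymes, 4 were above 0 in the authors' deposited table, with a median of -0.065, and FH (log2 fold change -0.23, adjusted p = 0.182) and IDH3A (-0.22, adjusted p = 0.223) had the smallest adjusted p.

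**Figure D4:**
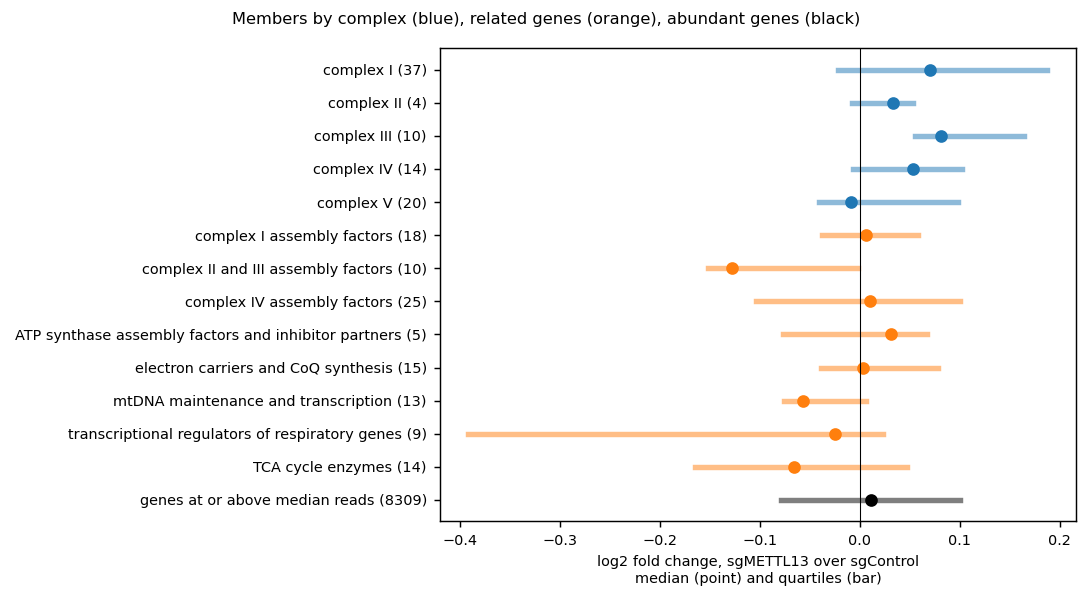
Median (point) and quartiles (bar) of the deposited log2 fold change (sgMETTL13 over sgControl) for the members by complex, the related lists and the abundant genes, with the number of genes in brackets. The medians lie between -0.128 and 0.082.

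As for the samples as a whole, the average estimated reads summed to 15247500 per library in sgMETTL13 cells and 15240866 in sgControl cells in the authors' deposited table. All 10 markers of ductal epithelium were over 10 TPM in both groups, with KRT19 at 2078 TPM in sgMETTL13 cells and 2107 TPM in sgControl cells in the authors' deposited table, and 2 rose (S100A2, KRT17) and 2 fell (MUC1, SOX9). Of 15 markers of other cell types 9 had a row, with a sum of 69.3 TPM in sgMETTL13 cells and 65.7 TPM in sgControl cells in the authors' deposited table, none passing the test; the largest were CD68 (44.1 TPM in sgMETTL13 cells and 40.9 TPM in sgControl cells) and COL1A1 (14.2 TPM in sgMETTL13 cells and 14.0 TPM in sgControl cells). PTPRC, CD3E, COL3A1, CELA3A, INS and GCG are not analysed here. The part of other cells in the results was not tested.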

How the data were processed

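RNA was sequenced from 6 libraries of T3M4 cells, 3 sgMETTL13 and 3 sgControl, and groups were taken from the sample titles. Per the submitters' processing notes the builds were hg38 and GRCh38.p12 and the tools RSEM 1.2.12, HISAT2 2.0.4, Bowtie2 2.2.5 and DESeq2 (without a version); the role and order of the tools were not given in the sources used here. Per the file headers, 1 deposited table lists group averages of TPM, FPKM and read counts as the authors computed them, and the authors' log2 ratio (KD over WT) with its p-value and q-value. The averages as deposited by the authors are expected counts, since 21.4% of genes have averages that are not multiples of 1 read divided by the 3 libraries (tolerance 0.005). For genes with at least the median reads, the deposited log2 fold change exceeds the log2 ratio of average counts by 0.0516 (SD 0.000717). Recomputing a Benjamini-Hochberg adjustment from the p-values gave the deposited q-value to within 1.205%, and that q-value is the adjusted p of the text; which test lies behind the p-value was not given in the sources used here. TPM sums as deposited by the authors were 999463 (sgMETTL13) and 999500 (sgControl).

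With averages only, no count model was fitted and the deposited comparison was the test. Single-library depth is unknown, so precision comes from an implied standard error, with a 95% interval: the log2 fold change's size over the normal quantile that matches its two-sided p-value. It carries no information beyond the deposited values. Coordinates, GC content and length came from GENCODE 29, matched for 16208 genes (97.5%) and all 85 members. The trend in GC content and length was fitted by least squares with splines (4 degrees of freedom each), without weights. The fit used the matched genes with at least the median reads. Computation used Python 3.11.15 with scipy 1.17.1, numpy 2.4.6, patsy 1.0.2, pandas 2.3.3 and matplotlib 3.10.9, and the steps were tested on simulated data. The members and lists were chosen with earlier results of these data known. Genes named are the members that passed the test, the 3 most abundant and those with the highest and lowest log2 fold change of each complex, isoform pairs, the c subunit genes, and of each related list the called genes or those with the smallest adjusted p, with METTL13 and NDUFA4L2; others complete a count or a role, and were chosen after their values were seen. Alternatives were other thresholds and adjustments, filters on reads, other scalings, FPKM, and removal of the trend.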

Additional observations from a re-analysis of the deposited data

How the results depend on the processing

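Of 100 alternative values of the main counts, medians and sums, 89 stayed within the tolerance (1.5 times for counts, the median implied standard error for medians and sums) and 11, all counts, did not. For medians this tolerance was wide enough to hold changes of sign. On the TPM ratio the median went from 0.070 to -0.0050 for complex I, from 0.033 to -0.041 for complex II and from 0.054 to -0.014 for complex IV. The 2 members called higher became 1 at an adjusted p under 0.01, 0 with Bonferroni adjustment and 0 after removal of the GC and length trend, and 3, with COX6A1 added, at an adjusted p under 0.10, among genes with at least the median reads and among genes with at least 10 mean reads. The 1 related gene called higher became 0 at an adjusted p under 0.01, with Bonferroni adjustment and after removal of that trend. The 1 related gene called lower became 0 at an adjusted p under 0.01 and 0 with Bonferroni adjustment, and 2 at an adjusted p under 0.10, among genes with at least the median reads, and after removal of that trend. The cause of these changes was not tested. Shares of all genes that passed are given here only for the main setting and for removal of the trend (2.79%). The counts at the other settings were therefore compared with no background. The members' median log2 fold change ran from -0.0196 (TPM ratio) to 0.0637. No paired analysis was possible because only averages of each group were at hand, without values of single libraries; for the same reason leaving out a library was not run. The precision of the averages, a median implied standard error of 0.083 on the log2 scale for the members, limits what could be detected, and the 6 members under 100 mean reads were the least precise.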
